A study of Mus musculus with 3 samples.

Results

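The 40 genes described here mostly encode proteins of the nucleolus, the nuclear compartment in which ribosomes are made. They are 40 of the 51923 genes in the count matrix, of which 35403 had at least 1 UMI (unique molecular identifier, a tag that counts each captured RNA molecule once). The members were chosen on the genotype contrast of these same data, because several of them were lower in knockout cells, so their genotype differences are a description, and the counts of members among the genes called in that contrast support nothing. The members are also tested for stage and for lineage within the controls. The choice did not use these contrasts, but the controls were the reference of the genotype contrast. The tests are therefore not independent of the choice.

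The cells came from C57BL/6 mouse embryos that all carried Mesp1-Cre and Ai9. Mesp1-Cre is active in early mesoderm that gives rise to the heart, vessels, part of the blood and cranial muscle, and Ai9 switches on the red protein tdTomato wherever Cre has acted, so that sorting on red fluorescence kept the Mesp1 lineage. Controls were Wls fl/+ and mutants were Wls fl/fl. Wls (Wntless) carries Wnt proteins to the cell surface, and its deletion in these embryos is limited to cells that have expressed Cre, while the controls also lack 1 copy in those cells. Samples were marked with MULTI-seq lipid barcodes and pooled, and RNA was counted with 10x Chromium v3 in 3 runs. Counts were summed over all cells of a barcode, which gave 22 samples: 3 controls and 3 mutants at E8.0, 2 controls and 1 mutant at E8.5, 6 controls and 6 mutants at E9.5, and 1 control that the per-cell table places at E7.5. The labels do not say how many embryos stand behind a barcode.

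Ribosome production starts when RNA polymerase I transcribes the long precursor of the ribosomal RNAs. Small nucleolar ribonucleoprotein particles (snoRNPs) of the box C/D type methylate this precursor and those of the box H/ACA type convert uridines to pseudouridine. Separate sets of assembly factors then fold and cut it into the small and the large subunit. The amount of this machinery follows growth and proliferation, and MYC proteins are among its best-known activators.

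The 14777 cells held 331587989 UMIs, with a median of 21739 per cell, and the samples ranged from 134457 UMIs in the control sample Bar6, which has 6 cells, to 61307782 in Bar3. Bar6 and the E9.5 mutant Bar5, with 57 cells and 927842 UMIs, hold the lowest E9.5 value of their genotype for many members. The members took 1.28% of all UMIs. Wls itself was at 7.25 to 14.2 CPM (the usual depth-scaled UMI count, a gene's share of the sample's UMIs on the counts-per-million scale) in mutant samples of the first and last stage, at 3.72 CPM in the E8.5 mutant and at 35.9 to 65.4 CPM in the controls of E8.0 to E9.5, with no overlap. The E7.5 sample, labelled as a control, was at 14.1 CPM; it entered the fit over all stages as a stage of its own and no other comparison. Cells were called positive for a lineage if at least 3 of its markers each had at least 2 UMIs. The call went to 7659 cells for exactly 1 lineage, to 824 for several, which were left out as possible doublets, and to none in 6294. In cardiomyocyte-positive cells the 7 cardiomyocyte markers summed to 18724 CPM, against 48.9 to 146.6 CPM in the 5 other lineages used. The call was made on these same markers, so this gap describes the cells and does not test the call. Although the cells were sorted as Mesp1 lineage, 126 were positive for neural and 85 for endoderm markers, too few to use.

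The promoters of the members are shown first, and whether their letters bear on the differences below was not tested. RefSeq start sites of the GRCm38.p6 build were matched for 34 of the 40 members; Fbl, Npm1, Tbl3, Rrp12, Bop1 and Pinx1 had no entry. In the 300-base windows that run from 250 bases before to 50 bases after the start, the E-box CACGTG, the letters that MYC proteins bind, stood in 7 of these 34 members (20.6%) and in 8.09% of all 27025 genes with a window. The GC box GGGCGG was found on either strand in 24 members (70.6%, all genes 38.2%), the ETS motif CCGGAAG in 11 (32.4%, all genes 9.93%) and CCAAT in 10 (29.4%, all genes 41.1%). These are matches of letters, not binding sites, and no binding was measured. The 120 bases before the start are printed for the scaffold proteins Nop56 and Nop58, for nucleolin (Ncl), one of the most abundant members, and for 2 members with an E-box in these bases. Capitals mark the E-box, the ETS motif, the GC box and CCAAT on either strand.
Nop56 (chr2:130274292-130274411, plus strand): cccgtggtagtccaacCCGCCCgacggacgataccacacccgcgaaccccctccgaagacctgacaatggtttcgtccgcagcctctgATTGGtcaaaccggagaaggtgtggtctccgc
Nop58 (chr1:59684886-59685005, plus strand): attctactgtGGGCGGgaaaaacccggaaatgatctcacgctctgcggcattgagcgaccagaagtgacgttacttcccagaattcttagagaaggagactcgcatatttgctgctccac
Ncl (chr1:86359456-86359575, minus strand): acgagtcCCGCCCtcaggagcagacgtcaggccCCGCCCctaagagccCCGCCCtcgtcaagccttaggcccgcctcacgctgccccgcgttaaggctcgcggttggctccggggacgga
Rrn3 (chr16:13780579-13780698, plus strand): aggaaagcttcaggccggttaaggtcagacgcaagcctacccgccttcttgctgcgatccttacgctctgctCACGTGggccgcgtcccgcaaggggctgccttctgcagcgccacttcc
Nop2 (chr6:125131763-125131882, plus strand): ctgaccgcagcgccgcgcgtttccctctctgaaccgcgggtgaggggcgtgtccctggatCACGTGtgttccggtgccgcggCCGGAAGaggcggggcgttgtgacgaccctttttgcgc
The E-box of Rrn3 begins 48 bases before the start, with another 215 bases before it, and that of Nop2 begins 60 bases before it. Trmt61a, whose difference over all stages was the largest of the 40, has an E-box that begins 25 bases after the start. Ncl carries 3 GC boxes and no E-box in its window.

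All 40 members had a negative fitted difference between mutants and controls when the stages were fitted together, with a median of −0.33 on the log2 scale and a range from −0.78 (Trmt61a) to −0.07 (Npm1). The median over all 20831 genes tested was 0.02. Among the genes called lower in mutants at an adjusted p under 0.05 (edgeR's quasi-likelihood test with Benjamini-Hochberg adjustment) were 31 of the 40 members, beside 5.77% of all genes, and since the members were chosen on this contrast nothing is read from that count. No member was called higher, beside 4.47% of all genes. At E8.0, 39 of 40 differences were negative with a median of −0.27, and 0 members were called lower, beside 0.0183% of all genes. At E9.5, 39 of 40 were negative with a median of −0.36, and 19 were called lower, beside 4.55% of all genes. The split of all called genes moved with the scaling: 931 higher and 1201 lower with TMM factors, 1441 and 966 with DESeq2's size factors, and 1146 and 342 with library sizes alone, where 18 members were called lower and the members' median was −0.26. At E9.5 the split was 983 higher and 783 lower with TMM factors and 705 and 247 with library sizes alone, where 11 members were called lower. The E9.5 member count was 7 in run 1 alone, beside 532 of all 17346 genes called lower, and 0 in run 3 alone, beside 3 of 11111 genes. Run 2 holds a single mutant sample at E9.5, so no count is given for it.

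**Figure D1:**
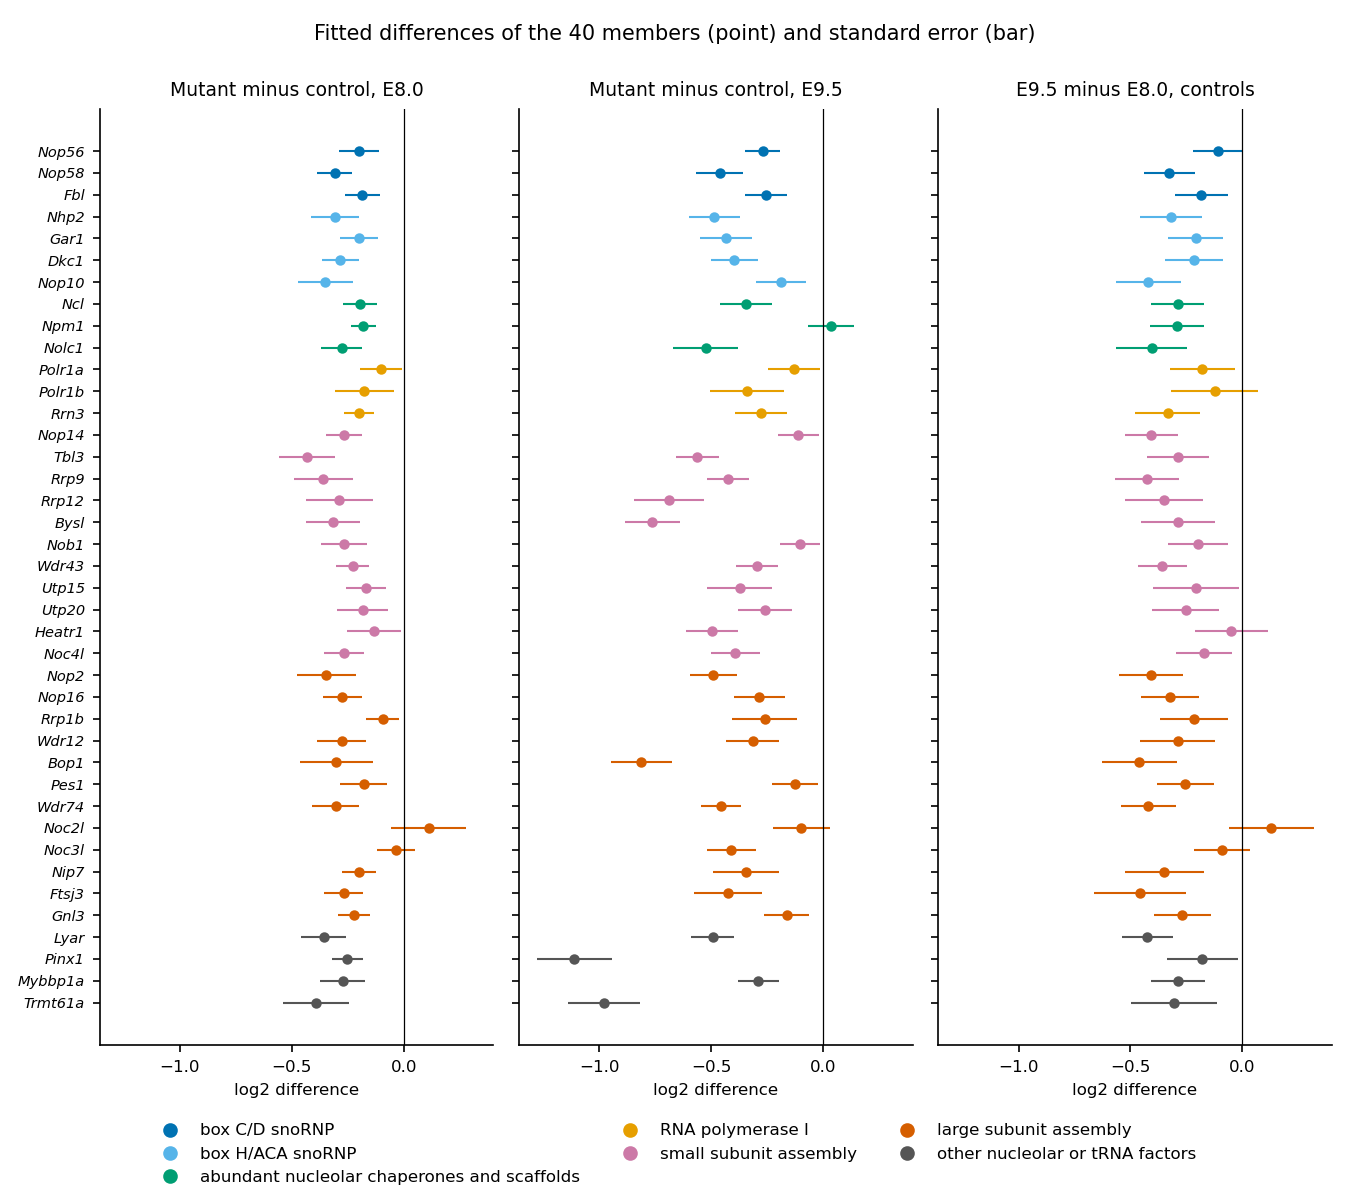
Fitted log2 differences (points) with standard errors (bars) of the 40 members, coloured by role, for mutant minus control at E8.0 and at E9.5 and for E9.5 minus E8.0 in controls. Nearly every point lies left of 0 in all 3 panels, and Pinx1 at −1.11 and Trmt61a at −0.98 lie farthest left at E9.5.

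The samples differed in more than genotype. At E8.0, cardiomyocyte-positive cells made up 9.0 to 15.0% of control samples and 13.3 to 18.4% of mutant samples, and cells positive for primitive erythroid markers made up 7.2 to 26.7% and 2.3 to 10.1%. At E8.5, cardiomyocyte-positive cells made up 8.8% of the control Bar2, 6.8% of the control Bar3 and 19.3% of the mutant Bar1. Erythroid-positive cells made up 17.6%, 15.7% and 9.4% of these samples in the same order. At E9.5, leaving out the 6-cell sample, cardiomyocyte-positive cells made up 6.5 to 14.6% of controls and 7.0 to 20.2% of mutants. Without the erythroid-positive cells the members had a median difference of −0.15 for E8.0 and of −0.35 for E9.5. Without the control sample Bar24 the E8.0 median was −0.16. The median depth per cell was 27742.5 to 29940 UMIs in E8.0 controls and 25075 to 27469 in E8.0 mutants. At E8.5 it was 24084.5 and 25886 in controls and 20908 in the mutant. At E9.5 it was 21991 and 22668 in controls of run 1 and 18088.5 to 21308.5 in mutants of run 1. In run 2 it was 21244 and 24431 against 14710, and in run 3 12386 and 13382 against 9759.5 and 10871.5. The part of depth in the differences was not tested. In bulk sums such as these, fewer cells of a type and less RNA per cell cannot be told apart, and values within lineages are given further on.

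The core proteins of the box C/D snoRNPs are Fbl, the methyltransferase, and the paired scaffold proteins Nop56 and Nop58. Nop56 was at 116, 132 and 136 CPM in the E8.0 controls and at 115, 118 and 120 CPM in the E8.0 mutants; at E9.5 its lowest, median and highest values were 68.3, 101 and 125 CPM in controls and 61.4, 83.2 and 109 CPM in mutants. The groups overlapped at both stages, and the fitted differences were −0.20 ± 0.09 (SE) at E8.0 and −0.27 ± 0.08 at E9.5 on the log2 scale. Nop58 was at 473, 520 and 534 CPM in E8.0 controls and at 428, 432 and 444 CPM in E8.0 mutants, with every mutant sample below every control. At E9.5 it ranged around medians of 364 CPM in controls (305 to 446) and 288 CPM in mutants (184 to 355), and the groups overlapped. Fbl was at 120, 123 and 136 CPM in E8.0 controls against 113, 117 and 122 CPM in mutants, and its E9.5 medians were 98.5 CPM (53.2 to 117) and 78.96 CPM (48.5 to 99.4). The Fbl values of the genotypes overlapped at both stages.

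The box H/ACA particles hold the pseudouridine synthase dyskerin (Dkc1) with Nhp2, Gar1 and Nop10; the same proteins bind telomerase RNA. Nhp2 was at 457, 471 and 581 CPM in E8.0 controls and at 416, 428 and 448 CPM in mutants. At E9.5 Nhp2 was at 403 to 536 CPM (median 415) in the 6 controls and at 253 to 382 CPM (median 296) in the 6 mutants. Nhp2 was the only member whose mutant samples all lay below all control samples at both of these stages. Dkc1 was at 258, 271 and 299 CPM in E8.0 controls and at 234, 241 and 245 CPM in mutants, again without overlap, and at E9.5 at 164 to 251 CPM (median 209) and 122 to 216 CPM (median 166). Gar1 overlapped at E8.0 (185, 186 and 211 CPM against 173, 175 and 187 CPM) and at E9.5 (122 to 207 CPM, median 160, against 98.1 to 153 CPM, median 120). Nop10, the smallest subunit, was at 523, 616 and 632 CPM in E8.0 controls against 424, 511 and 535 CPM in mutants, and at E9.5 at medians of 475 CPM (432 to 547) and 437 CPM (333 to 538). The fitted E9.5 differences of these 4 were −0.49 ± 0.11 for Nhp2, −0.43 ± 0.12 for Gar1, −0.40 ± 0.11 for Dkc1 and −0.19 ± 0.11 for Nop10.

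Nucleolin (Ncl) and nucleophosmin (Npm1) are among the most abundant nucleolar proteins and act as chaperones of ribosomal RNA and ribosomal proteins, and Nolc1 is a scaffold that holds snoRNPs. Ncl was at 3145, 3345 and 3660 CPM in E8.0 controls and at 2928, 3160 and 3294 CPM in mutants. At E9.5 it spread from 1740 to 2993 CPM in controls (median 2602) and from 1465 to 2641 CPM in mutants (median 1965). Npm1 was at 5385, 5924 and 6080 CPM in E8.0 controls and at 5186, 5512 and 5526 CPM in mutants. Its E9.5 values were 2807 to 5006 CPM in controls (median 4335) and 4025 to 4796 CPM in mutants (median 4184), so that the mutants lay inside the control range; its fitted E9.5 difference was 0.03 ± 0.10, the only positive one. Nolc1 was at 287, 290 and 346 CPM against 262, 266 and 276 CPM at E8.0, without overlap, and at E9.5 at medians of 207 CPM (126 to 245) and 156 CPM (85.1 to 216).

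Polr1a and Polr1b are the largest subunits of RNA polymerase I, and Rrn3 is the factor that brings the polymerase to the ribosomal DNA promoter. The fitted differences at E8.0 and E9.5 were −0.10 ± 0.09 and −0.13 ± 0.12 for Polr1a, −0.18 ± 0.13 and −0.34 ± 0.17 for Polr1b and −0.20 ± 0.07 and −0.28 ± 0.12 for Rrn3. Polr1a was at 53.1, 56.2 and 61.3 CPM in E8.0 controls against 52.0, 56.8 and 59.5 CPM in mutants, and at E9.5 at 28.5 to 52.7 CPM (median 38.8) against 12.9 to 50.4 CPM (median 41.5). Polr1b was at 27.4, 31.6 and 33.8 CPM against 25.1, 30.3 and 31.7 CPM at E8.0, and at 7.44 to 32.6 CPM (median 16.8) against 9.70 to 25.2 CPM (median 17.5) at E9.5. Both overlapped at both stages, and their E9.5 medians stood in the opposite order to the fitted differences. The fits take the run into account and also use TMM factors, and which of these changed the order was not tested. Rrn3 was at 71.8, 74.2 and 75.1 CPM in E8.0 controls and at 63.8, 68.4 and 71.1 CPM in mutants, without overlap, and at E9.5 at medians of 49.6 CPM (14.9 to 61.4) and 42.8 CPM (34.5 to 51.3); the lowest E9.5 control is the 6-cell sample, with 2 UMIs.

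The small-subunit factors were represented by 11 members, of which Rrp9 (a protein of the U3 snoRNP), Nop14 and Wdr43 had the largest fitted stage change in controls. Rrp9 was at 77.0, 88.4 and 111 CPM in E8.0 controls and at 71.97, 76.8 and 78.8 CPM in mutants, and at E9.5 at medians of 68.8 CPM (53.6 to 74.4) and 48.0 CPM (37.7 to 60.9). Nop14 was at 114, 118 and 130 CPM against 104, 105 and 108 CPM at E8.0, without overlap, and at 92.4 to 119 CPM (median 104) against 91.9 to 97.9 CPM (median 94.96) at E9.5. Wdr43 was at 240, 243 and 265 CPM against 217, 223 and 235 CPM at E8.0, also without overlap, and at medians of 191 CPM (149 to 200) and 158 CPM (116 to 185) at E9.5. The 11 fitted genotype differences over all stages ran from −0.57 (Bysl, needed for late maturation of the small subunit) over Rrp12 (−0.55), Tbl3 (−0.54), Heatr1 (−0.37), Noc4l (−0.34), Utp15 (−0.33) and Utp20 (−0.26) to Nob1 (−0.20), the nuclease that makes the final cut of 18S RNA, and Nop14 (−0.19).

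The large-subunit factors were represented by 12 members, among them Bop1, Pes1 and Wdr12, which form the PeBoW complex. Bop1 was at 76.9, 78.4 and 113 CPM in E8.0 controls and at 73.7, 74.0 and 83.1 CPM in mutants. At E9.5 it was at 37.2 to 69.4 CPM (median 45.8) in controls and at 12.9 to 52.0 CPM (median 32.3) in mutants. The lowest control value is 5 UMIs in the 6-cell sample, and the lowest mutant value is 12 UMIs in Bar5, which has 57 cells. The fitted E9.5 difference of Bop1 was −0.81 ± 0.14. Its partners in the complex had smaller E9.5 differences, −0.31 for Wdr12 and −0.13 for Pes1. Ftsj3, a methyltransferase-like processing factor, was at 156, 161 and 185 CPM against 143, 148 and 151 CPM at E8.0, without overlap, and at 29.7 to 125 CPM (median 102) against 52.8 to 110 CPM (median 79.6) at E9.5. Its lowest E9.5 control is 4 UMIs in the 6-cell sample, and the next control was at 80.4 CPM. Wdr74 was at 136, 146 and 169 CPM in E8.0 controls and at 124, 127 and 136 CPM in mutants, and at E9.5 at 99.3 to 140 CPM (median 115) and 74.4 to 95.9 CPM (median 83.7), where no mutant sample reached a control. The other members of the group had all-stage differences from −0.46 (Nop2, an RNA methyltransferase of the large subunit) over Nip7 (−0.32), Nop16 (−0.29), Noc3l (−0.28), Rrp1b (−0.22) and Gnl3 (−0.21) to Noc2l (−0.12).

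Trmt61a, Pinx1, Lyar and Mybbp1a work at the edge of the pathway, and Trmt61a and Pinx1 had the largest genotype differences of the 40 over all stages and at E9.5. At E8.0 Tbl3 was lowest at −0.43, with Trmt61a at −0.39 and Pinx1 at −0.25. Trmt61a (chr12:111678105-111683902, plus strand) is the catalytic subunit of the enzyme that methylates an adenosine in the T loop of transfer RNAs. It was at 27.8, 32.9 and 38.5 CPM in E8.0 controls and at 25.0, 25.9 and 29.1 CPM in mutants, and at E9.5 at 7.44 to 31.1 CPM (median 27.4) and 10.4 to 19.3 CPM (median 13.7). The lowest control value is 1 UMI in the 6-cell sample; the next control was at 26.3 CPM, above all mutants. Pinx1 (chr14:63860364-63919859, plus strand) binds and inhibits telomerase. Pinx1 was at 81.8, 83.0 and 83.8 CPM in E8.0 controls and at 68.8, 74.6 and 77.5 CPM in mutants, without overlap. At E9.5 Pinx1 was at 22.3 to 76.8 CPM (median 68.5) in controls and at 14.0 to 45.5 CPM (median 34.4) in mutants, and again only the 6-cell control (3 UMIs) lay inside the mutant range. The fitted differences at E9.5 were −0.98 ± 0.16 for Trmt61a and −1.11 ± 0.17 for Pinx1.

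Lyar, a nucleolar zinc-finger protein of growing cells, was at 484, 501 and 590 CPM in E8.0 controls and at 419, 419 and 462 CPM in mutants, without overlap. Its E9.5 values were 314 to 417 CPM (median 402) in controls and 218 to 345 CPM (median 277) in mutants. Mybbp1a, a nucleolar protein that binds MYB, was at 201, 210 and 254.5 CPM against 192, 194 and 197 CPM at E8.0, without overlap, and at 109 to 190 CPM (median 126) against 74.4 to 167 CPM (median 130) at E9.5. The medians of Mybbp1a therefore stood in the opposite order to its fitted E9.5 difference of −0.29 ± 0.09. The fit takes the run into account and also uses TMM factors, and which of these changed the order was not tested.

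**Figure D2:**
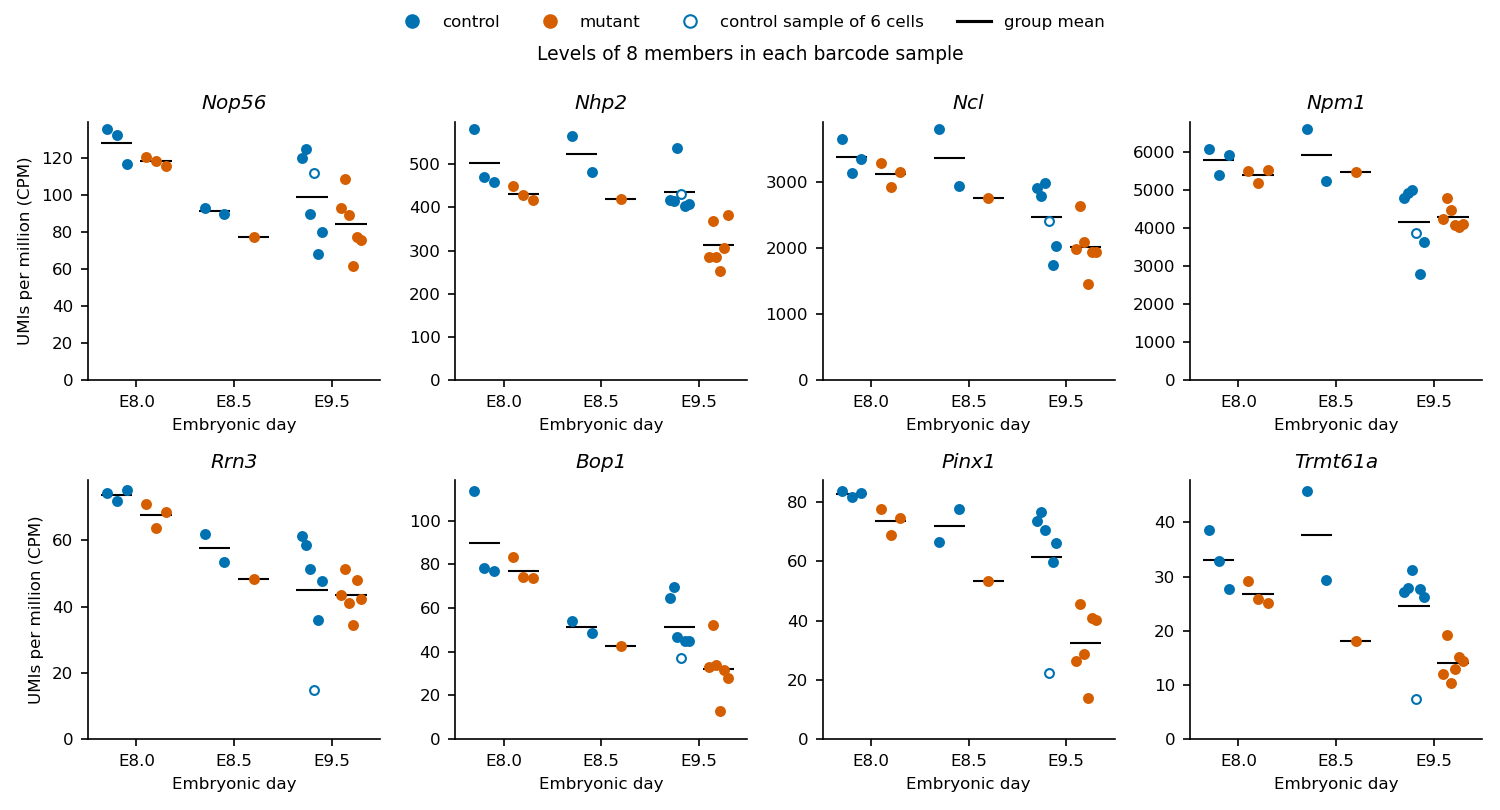
CPM of 8 members in every barcode sample of E8.0, E8.5 and E9.5, controls in blue and mutants in orange, with the group mean as a line and the 6-cell control as an open point. Nhp2 shows no overlap at E9.5, Npm1 overlaps throughout, and for Pinx1 the open point is the one E9.5 control among the mutants, and for Trmt61a it lies below them.

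Over all 40 members, every mutant sample lay below every control sample for 17 members at E8.0, beside 3.67% of all genes tested, and for 2 at E9.5, beside 0.377%. Without the 6-cell control, 5 members (Bysl, Nhp2, Pinx1, Trmt61a and Wdr74) did so at E9.5, beside 0.871% of all genes. At E8.5 the single mutant sample lay below both controls for 36 members, beside 18.4% of the 20831 genes tested over all stages, and between them for Fbl, Npm1, Polr1b and Pes1. That mutant also held the largest share of cardiomyocyte-positive cells at E8.5, and the part of cell composition in this order was not tested. Compared within runs at E9.5, the mean CPM was lower in mutants for 39 members in run 1 (2 controls, 3 mutants), for 37 in run 2 (2 controls, 1 mutant) and for 23 in run 3 (2 controls, 2 mutants). The run 2 mutant has 57 cells, and the 6-cell control is 1 of its 2 controls. These counts have no share over all genes beside them, so nothing is read from them. In run 3 globin RNA took 12.7% and 22.8% of the UMIs of the controls and 5.0% and 7.7% of those of the mutants. Fitted with TMM factors, the run 3 median of the members was −0.30. The part of globin RNA in the run 3 count was not tested. Summed over the 38 members other than Npm1 and Ncl and scaled to the UMIs outside the globin genes, the level was 5801 to 6883 CPM in E8.0 controls and 5306 to 5714 in E8.0 mutants. At E9.5 this sum was 4835 to 5801 CPM in controls and 3649 to 4784 in mutants. The separation at E9.5 depends on the scale and the genes summed: the same 38 members overlapped in plain CPM, at 3890 to 5187 in controls and 2785 to 4541 in mutants, and all 40 members overlapped outside the globin genes, at 11105 to 14923 and 10630 to 12618 CPM.

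The same genotype difference was looked at within cells positive for each of 6 marker lists, over samples with at least 20 such cells. The members' median difference was negative in each: −0.22 in cardiomyocyte-positive cells, −0.19 in paraxial, −0.19 in second heart field or pharyngeal, −0.15 in splanchnic, −0.13 in erythroid and −0.12 in endothelial or endocardial cells. Leaving out each sample in turn, they ran from −0.25 to −0.19, −0.24 to −0.16, −0.23 to −0.14, −0.18 to −0.12, −0.20 to −0.05 and −0.15 to −0.07 in the same order; the erythroid median was −0.05 without the mutant Bar19, and the endothelial one −0.07 without the control Bar22. The medians over all genes tested lay between −0.004 and 0.02. Of the 40 members, 26 had a negative difference in all 6 lineages, 11 in 5 and 2 in 3, while Noc2l was negative in 1. Pinx1 ranged from −0.77 ± 0.14 in paraxial to −0.25 ± 0.18 in erythroid cells, and Trmt61a from −1.04 ± 0.30 in pharyngeal to −0.17 ± 0.19 in splanchnic cells. Npm1 stayed between −0.08 and 0.05.

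These values come from the contrast on which the members were chosen and from the same samples, so nothing is read from the members among the genes called. In paraxial cells these were 10, beside 1.89% of all genes called lower: Trmt61a (−0.79), Pinx1 (−0.77), Bysl, Tbl3, Bop1, Nop2, Wdr74, Nop58, Noc4l and Lyar (−0.31). The paraxial count, 10 of the 221 genes called lower, was 1 of 13 genes without Bar22, 2 of 16 without Bar23, 5 of 40 to 95 without Bar1, Bar3, Bar19, Bar20 or Bar21 and 16 of 484 without Bar29. In cardiomyocyte-positive cells Lyar was among them (−0.42 ± 0.09), beside 0.313% of all genes, and in splanchnic cells Pinx1 was (−0.56 ± 0.10), beside 0.0238%. No member was called without Bar1, Bar3, Bar19, Bar22, Bar23 or Bar24 in either lineage, nor without Bar9, Bar21 or Bar27 in cardiomyocyte-positive cells, nor without Bar20 or Bar28 in splanchnic cells. Among samples, the sum of the 38 members was 3575 to 3755 CPM of the UMIs outside the globin genes in cardiomyocyte-positive cells of E8.0 controls and 3271 to 3389 in those of mutants. At E9.5 the cardiomyocyte sums overlapped, at 2730 to 3573 in 5 controls and 2545 to 2922 in 5 mutants. In paraxial cells the sums overlapped at E8.0, at 5524 to 6031 in 2 controls and 5504 to 5527 in 3 mutants, and did not at E9.5, at 5540 to 6560 in 4 controls and 4176 to 4720 in 3 mutants. In pharyngeal cells of E8.0 they were 5457 and 5489 in controls and 4774 and 4782 in mutants, and at E9.5 they overlapped, at 4734 to 5021 and 3487 to 4825. In splanchnic cells they were 5882 to 6326 and 5600 to 5827 at E8.0, without overlap, and 4404 to 5095 and 3520 to 4654 at E9.5, with overlap. In endothelial cells of E8.0 the order was not kept, with 5570 to 5972 in controls and 5751 to 6013 in mutants, whereas at E9.5 it was 4530 to 4855 in 3 controls and 3652 to 3708 in 2 mutants. In erythroid cells of E8.0 the sums overlapped, at 8320 to 9757 in 3 controls and 8599 and 9241 in 2 mutants, at E8.5 the mutant lay above the control, at 7655 against 7211, and at E9.5 the mutants, at 4227 to 7859, enclosed the controls, at 6414 to 7779. In the other lineages the E8.5 mutant lay below the control. It was at 2717 against 3414 in cardiomyocyte-positive, 4354 against 4951 in endothelial and 5127 against 6049 in paraxial cells. It was at 4605 against 4964 in pharyngeal and 4369 against 5067 in splanchnic cells. Whether the genotype difference differs between lineages was not tested.

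**Figure D3:**
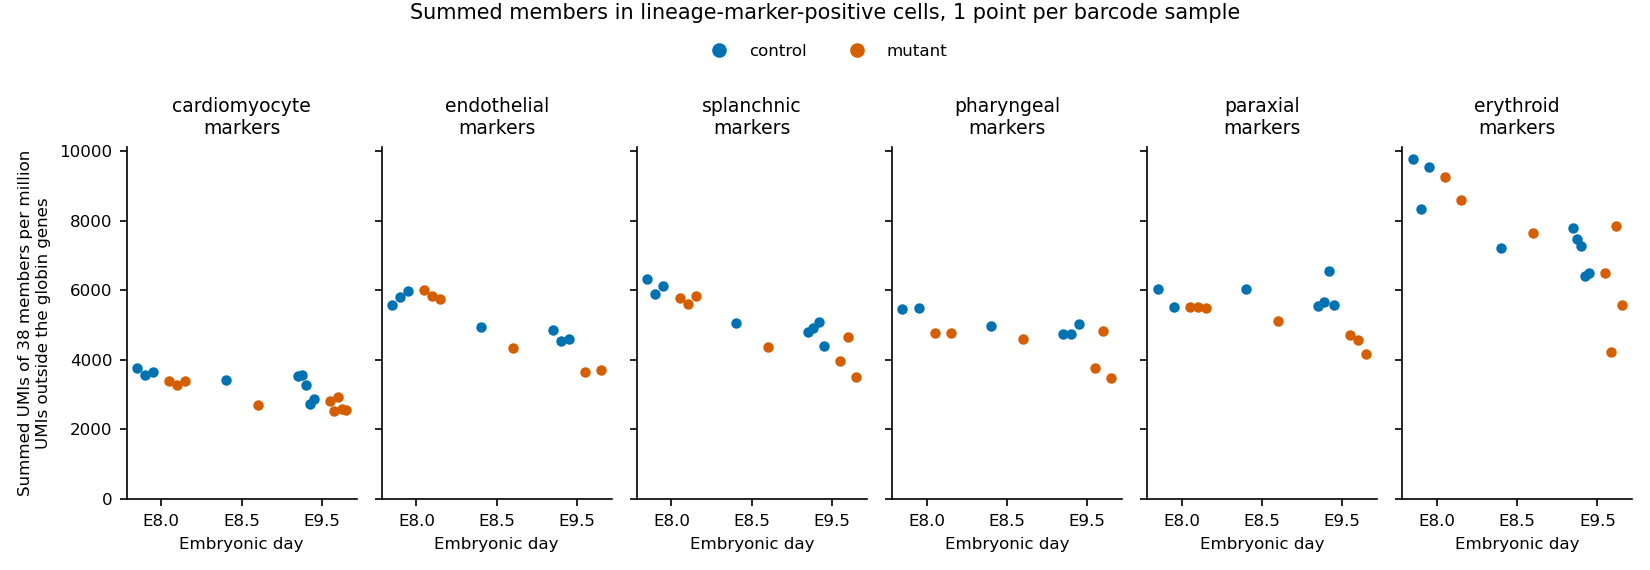
Summed CPM of 38 members, of the UMIs outside the globin genes, in cells positive for 6 marker lists, by embryonic day, 1 point per barcode sample with at least 20 such cells. Among controls, cardiomyocyte-positive cells lie lowest at each stage, between 2730 and 3755, and erythroid cells of E8.0 highest, between 8320 and 9757.

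Whether the machinery changes as the control embryo grows was tested from E8.0 to E9.5. All E8.0 samples were in run 1 and all E8.5 samples in run 2, while each of the 3 runs held 2 E9.5 controls. With the run as a term, the contrast rests mainly on the E9.5 controls Bar22 and Bar23 and the 3 E8.0 controls, all of run 1, and no E8.0 sample shared a run with an E8.5 sample. Of the 40 members, 39 had lower fitted levels at E9.5, with a median of −0.29 against 0.01 for all 17860 genes, but only Lyar passed the test, at −0.42 ± 0.11 (edgeR's quasi-likelihood test, Benjamini-Hochberg adjusted p = 0.0467), beside 2.30% of all genes called lower. Lyar was at 396 and 408 CPM in the E9.5 controls of run 1, below the 484 to 590 CPM of the 3 E8.0 controls, and its adjusted p in run 1 alone was 0.0685. Other members passed in run 1 alone, so which members pass depends on the fit. The member counts of the other fits are given in the section on processing. The 4 E9.5 controls of the other runs, at 314 to 417 CPM, were also below the E8.0 controls, but their difference from them holds the run as well. The next in order, Nop14 (−0.41 ± 0.12, adjusted p = 0.0631), Wdr74 (−0.42 ± 0.12, adjusted p = 0.0693) and Wdr43 (−0.36 ± 0.11, adjusted p = 0.0784), did not pass. Bop1 and Ftsj3 had the largest values, both −0.46, with standard errors of 0.17 and 0.21. Noc2l alone had a positive value, 0.13. Within paraxial cells the controls' sum of 38 members outside the globin genes overlapped, at 5524 to 6031 CPM at E8.0 and 5540 to 6560 CPM at E9.5. In the other lineages used every E9.5 control lay below every E8.0 control. The gap was narrow in cardiomyocyte-positive cells, at 2730 to 3573 CPM against 3575 to 3755 CPM. These sums mix runs, and stage was not tested within lineages.

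By role, the median stage value was −0.18 for the box C/D proteins and for the RNA polymerase I genes, −0.27 for the box H/ACA proteins, −0.29 for the abundant chaperones and for the small-subunit factors, and −0.31 for the large-subunit factors. For the other nucleolar or transfer RNA factors, which include Lyar, it was −0.30. No member passed between E8.0 and E8.5 (median −0.22) or between E8.5 and E9.5 (median −0.04), contrasts in which 46 and 0 of all genes passed by edgeR. In the latter 529 genes had an unadjusted p under 0.05. Both contrasts rest on the E8.5 controls Bar2, with 34 cells, and Bar3. The E9.5 controls of their run are Bar4 and Bar6, the sample with 6 cells. The call of Lyar was lost in 15 of the 19 alternative fits. Without the erythroid-positive cells no member passed and the median was −0.17, and without the E8.0 sample Bar24 no member passed and it was −0.18. The count of all genes called rested on single samples too, with 1043 in all, 120 without Bar22, 185 without Bar23 and 583 without Bar24.

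The clearest tested difference was between lineages. In control samples, the 40 members were all lower in cardiomyocyte-positive cells than in the mean of the 5 other lineages, with a median of −0.76, beside 25.1% of all 13131 genes called lower and a median of −0.01 over all genes (edgeR's quasi-likelihood test with the sample as a block, 9 samples with cardiomyocyte-positive cells). The values ran from −1.09 ± 0.07 for Lyar, −1.05 ± 0.11 for Heatr1, −1.02 ± 0.06 for Dkc1 and −1.01 ± 0.05 for Ncl to −0.17 ± 0.07 for Rrn3 (adjusted p = 0.0385). Ncl was at 1026 to 1949 CPM (median 1683) in cardiomyocyte-positive cells of the 9 control samples, and at medians of 3278 CPM in endothelial, 3063 in splanchnic, 3207 in pharyngeal and 3345 CPM in paraxial cells. Rrn3 stood apart, at medians of 55.2 CPM in cardiomyocyte-positive cells against 54.1 to 61.5 CPM in those 4 lineages. Summed over all 40 members in plain CPM, erythroid cells were below cardiomyocyte-positive cells in Bar3 (8238 against 9236 CPM) and Bar7 (6054 against 6139 CPM). Bar7 held no other lineage with at least 20 cells. Summed without Npm1 and Ncl, the members were lowest in the cardiomyocyte-positive cells of all 9 control samples, so this order depends on the genes summed.

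That direction held for all 40 members at library sizes alone, where 38 passed with a median of −0.64, beside 1714 of all 13131 genes called lower. When the erythroid-positive cells were left out of the mean, 39 passed with a median of −0.62, beside 3263 of 13491 genes. The calls lost in any of the alternatives were those of Rrn3, in 15 of them, and of Nip7, in 1. Genes for the proteins of the cytosolic ribosome shared the direction: all 79 passed as lower, with a median of −0.36, and 69 passed at library sizes alone. Among the other small-subunit factors 40 of 45 were lower and none higher, and among the other large-subunit factors 48 of 51. Myc was lower as well, by −2.21 ± 0.18 (adjusted p = 4.1e-14), while Mycn, at 0.21 ± 0.11, did not pass (adjusted p = 0.106). Cell cycle genes were lower in 15 of 16 cases in the same cells.

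Primitive erythroid cells gave the opposite order, with a size and a count that depended on the scale. Globin genes took 4.2 to 46.5% (median 31.2%) of the UMIs of erythroid-positive cells in the 9 control samples and at most 1.04% elsewhere. With TMM factors 39 of 40 members were higher than in the mean of the other lineages, with a median of 1.00, beside 37.0% of all genes called higher; the values ran up to 1.45 ± 0.05 for Wdr12 and 1.45 ± 0.08 for Tbl3, Npm1 (0.20 ± 0.05) passed at the low end, and Pinx1 at 0.11 did not pass (adjusted p = 0.173). With library sizes alone, 18 members were called higher and 7 lower, beside 1180 and 9873 of all 13131 genes, and the median of all genes moved from −0.09 to −0.93. The members' median lay 1.09 above that of all genes, a distance that a change of scale leaves nearly as it is, because it shifts all genes of a contrast alike. Under library sizes alone Wdr12 (0.62) and Nop10 (0.56) were still higher, whereas Npm1 (−0.60), Rrp1b (−0.53) and Pinx1 (−0.73) were lower. The 79 ribosomal protein genes behaved alike, with 79 higher under TMM and 11 higher and 23 lower under library sizes alone.

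The erythroid values were also spread by stage, which was not tested within this lineage. The sum of the 38 members was, in CPM of the UMIs outside the globin genes, 8320, 9541 and 9757 in the 3 E8.0 controls, 7211 in the E8.5 control and 6414 to 7779 in 5 E9.5 controls. All 3 E8.0 samples were above all later ones. Cells positive for paraxial markers were next in order at E9.5, at 5540 to 6560 CPM in 4 controls.

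The other lineages lay closer together, and their counts depend on which cells make up the mean. In paraxial cells 20 members were higher and none lower (median 0.19, beside 21.0% of all genes called higher), led by Dkc1 (0.44 ± 0.05) and Pinx1 (0.41 ± 0.08). With library sizes alone 32 were higher, beside 4145 of all 13131 genes. Without the erythroid-positive cells in the mean 39 were higher, beside 2230 of all 13491 genes. Without the cardiomyocyte-positive cells 5 were higher and 2 lower, beside 2653 and 1955 of 13709 genes, and at E8.0 alone 1 was higher, beside 1096 of 11247 genes. In endothelial cells 11 members were lower (20.1% of all genes) and Bop1 was higher (0.27 ± 0.08; 19.3% of all genes), with Tbl3 (−0.52 ± 0.12) and Wdr74 (−0.49 ± 0.08) lowest. In pharyngeal cells 14 were lower (12.8% of all genes), led by Trmt61a (−0.59 ± 0.12), and Npm1 was higher (0.16 ± 0.06; 17.6% of all genes). In splanchnic cells 8 were lower (14.6% of all genes) and Pinx1 was higher (0.25 ± 0.08; 20.2% of all genes). With library sizes alone 3, 3 and 4 members passed in endothelial, pharyngeal and splanchnic cells, beside 3984, 3996 and 4709 of all 13131 genes, and the median of the members was positive in all 3, at 0.06, 0.03 and 0.11, while that of all genes was 0.09, 0.21 and 0.19. Without the erythroid-positive cells in the mean, 11 members were higher and 1 lower in endothelial cells, beside 2781 and 2430 of 13491 genes. In splanchnic cells 8 were then higher and none lower, beside 1658 and 1644 genes, and in pharyngeal cells 1 was higher and none lower, beside 1185 and 1156. Without the cardiomyocyte-positive cells in the mean, more members passed in each of these 3 lineages than in the main fit, all as lower. The counts are given in the section on processing. With TMM factors the members' median minus that of all genes was −0.03 in endothelial, −0.17 in pharyngeal and −0.07 in splanchnic cells. Without the erythroid-positive cells in the mean this difference was 0.14, 0.03 and 0.12, so that its sign changed with the cells they are set against.

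**Figure D4:**
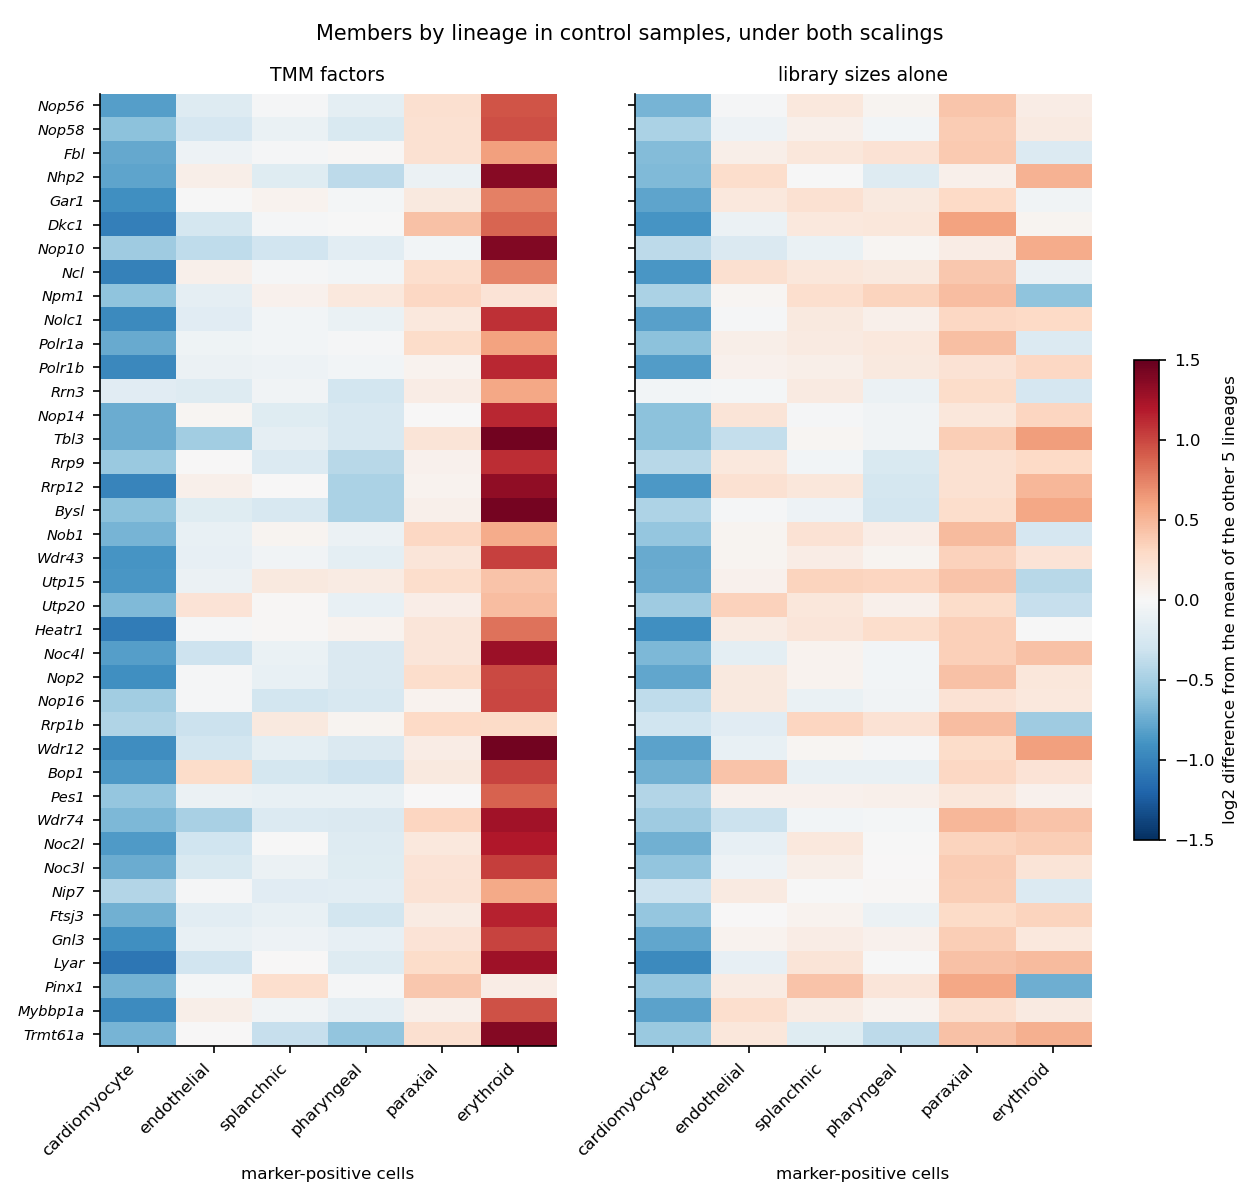
Log2 difference of each of the 40 members in cells positive for 1 marker list from the mean of the other 5, in control samples, with TMM factors (left) and library sizes alone (right). The cardiomyocyte column is negative on both sides, with medians of −0.76 and −0.64, while the erythroid column has medians of 1.00 and 0.16.

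Genes of the same pathway that are not among the 40 were taken from lists of pathway members and compared between mutants and controls over all stages. These lists, too, were written with earlier results known. Over all genes in this contrast 5.77% passed as lower and 4.47% as higher, and at library sizes alone 342 and 1146 of 20831. Of 45 other small-subunit factors 29 passed as lower and none as higher, with a median of −0.27; the 3 largest were Pno1 (−0.50), Utp4 (−0.49) and Mphosph10 (−0.43). Of 51 other large-subunit factors 33 passed as lower, with a median of −0.28, led by Ddx21 (−0.48), an RNA helicase that senses nucleolar transcription, Mak16 (−0.46) and Nol8 (−0.41). Of 14 other RNA polymerase I genes 7 passed as lower, led by Polr1e (−0.54) and Tcof1 (−0.30), the gene mutated in Treacher Collins syndrome. Of 8 other snoRNP assembly genes Ruvbl1 (−0.32) and Snu13 (−0.27) passed. With library sizes alone 12, 12, 1 and 0 genes of these 4 lists passed, all as lower, and their medians were −0.21, −0.21, −0.14 and −0.13.

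Genes of RNA decay and transfer RNA modification showed the same sign. Of 14 exosome genes 8 passed as lower (median −0.23; 3 at library sizes alone), led by Exosc1 (−0.43). Of 20 transfer RNA modification genes 9 passed as lower (median −0.27; 5 at library sizes alone). Trmt6, the partner subunit of Trmt61a, was at −0.46 ± 0.09 (edgeR's quasi-likelihood test, adjusted p = 0.00287), followed by Elac2 (−0.45) and Wdr4 (−0.45). Of 27 genes of nucleotide synthesis 13 passed as lower (median −0.24; 5 at library sizes alone), led by Atic (−0.45), and of 16 cell cycle genes 7 (median −0.26; 3 at library sizes alone), led by Ccne1 (−0.66), which encodes cyclin E1.

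For the ribosomal proteins themselves, none of 79 genes passed in either direction over all stages by edgeR, 29 were negative, and the median was 0.03. With library sizes alone 2 passed as higher. The stages differed in sign: at E8.0 the median was −0.13, with 75 of 79 negative and 1 passing as lower, and at E9.5 it was 0.14, with 8 negative and 1 passing as higher. Of all genes, 3 of 16416 passed as lower at E8.0 and 983 of 17227 as higher at E9.5. Scaled to the UMIs outside the globin genes, the sum of the 79 genes overlapped between the genotypes at both stages, at 135764 to 145029 CPM in controls and 132036 to 140026 CPM in mutants of E8.0 and at 140728 to 161563 CPM and 146958 to 190059 CPM at E9.5. In plain CPM it did not overlap at E9.5, at 123664 to 136570 CPM in controls and 139683 to 151530 CPM in mutants. Within lineages of E9.5, outside the globin genes, the mutants lay above the controls in paraxial (164874 to 176334 against 133628 to 147396 CPM), pharyngeal (156647 to 178611 against 137116 to 142501 CPM) and splanchnic cells (143118 to 161141 against 127893 to 135518 CPM). In cardiomyocyte-positive, endothelial and erythroid cells of E9.5 the sums overlapped, at 112458 to 135008 CPM in mutants against 102579 to 119621 CPM in controls in the first of these. In paraxial cells 9 of the 79 passed as higher in mutants and none as lower, beside 254 and 221 of all 11717 genes. The number of all genes called there ran from 38 to 859 when single samples were left out. Of 12 genes of the MYC network Max passed as lower (−0.22) and Mxi1, an antagonist of MYC, as higher (0.63). Myc, at −0.26 ± 0.11 (adjusted p = 0.132), and Mycn, at 0.16 ± 0.09 (adjusted p = 0.293), did not pass. Of 18 targets of p53 Gdf15 passed as higher (2.24) and Aen (−0.48) and Rps27l (−0.33) as lower; Cdkn1a (0.69 ± 0.28, adjusted p = 0.134) and Mdm2 (−0.09 ± 0.06, adjusted p = 0.672) did not pass. All 18 genes of a low-oxygen response list passed as higher, with a median of 1.39 and Bhlhe40 (2.65), Ndufa4l2 (2.48) and Ddit4 (2.27), an inhibitor of mTORC1 signalling, in front. That list was drawn up with its rise already seen in these samples and is no independent evidence of its direction.

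**Figure D5:**
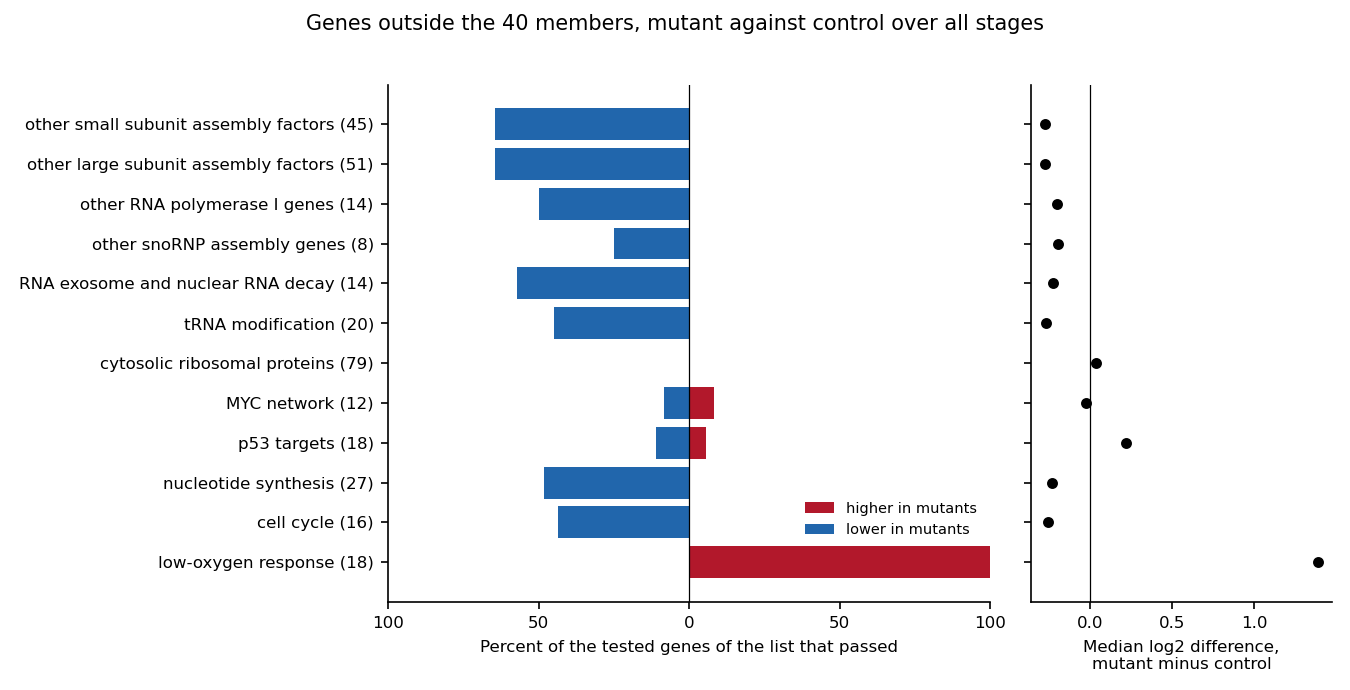
Percent of the tested genes of each list (number tested in brackets) that passed as lower (blue, left) or higher (red, right) in mutants over all stages, and the median log2 difference of the list. The assembly factor lists lie to the left at medians of −0.27 and −0.28, the ribosomal proteins show no bar, and the low-oxygen list fills the right side.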

How the data were processed

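The deposited counts are whole UMI counts per gene and cell, with a per-cell table of run, barcode, stage and genotype. Per the labels and the submitters' processing notes, reads were mapped with kallisto and bustools 0.46.1 on GRCm38, and Cell Ranger is also named; annotation, strand use and cell filters are not given in the sources used here. The members, the lists and the rule for lineage-positive cells were chosen with earlier results of these data known.

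UMIs were summed per run, barcode, stage and genotype (22 sums) and, within lineages, over marker-positive cells (at least 20 per sum; 6 of 10 marker lists had enough). The 3 globin genes among the erythroid markers did not count towards the call. Every test is edgeR's quasi-likelihood test (version 4.0.16, R 4.3.3) after filterByExpr and TMM scaling, with Benjamini-Hochberg adjustment and a threshold of 0.05: run as a term for stage, stage and run for genotype, the barcode sample as a block for lineage. Standard errors are the log2 difference over the square root of F. P-values measure only the spread between barcode samples, since nothing says that these are separate embryos. Alternatives were DESeq2 1.42.0, other scalings, filters and marker thresholds, single runs or stages, and each sample left out; the library-size scalings, the changed lineage means and the count without the 6-cell control were chosen after seeing the data. The fits were tested on simulated data. Tables were made in Python 3.11.15.

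Values per sample are given for Trmt61a, Pinx1, the snoRNP core genes, Ncl, Npm1, the RNA polymerase I genes and, in each other role, the 3 members with the largest fitted stage change; from each other list, up to 3 passing genes per direction, with Myc, Mycn, Trmt6, Cdkn1a and Mdm2. The runs share 23 cell barcodes, kept apart by run. In GENCODE M21, 17 members overlap a gene on the opposite strand and 6 one on their own strand, whose reads cannot be told apart here.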

Additional observations from a re-analysis of the deposited data

Results flagged for a closer look

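Among the 80 groups of 6 samples examined at E9.5 (40 members, each in controls and in mutants), 7 held a sample whose gap to the others was beyond Dixon's limit of 0.625 of the group's range. That limit marks about 1 in 20 groups by chance if groups are independent and their values equally precise. The groups here reuse the same samples, which differ widely in depth, so that rate is no yardstick for the 7. In 5 of the 7 the sample is the control Bar6, which has 6 cells and 134457 UMIs. There Utp15 was at 0 CPM (others 31.8 to 41.9), Wdr12 at 59.5 CPM (others 105.5 to 128), Noc3l at 59.5 CPM (others 31.4 to 37.0), Pinx1 at 22.3 CPM (others 59.9 to 76.8) and Trmt61a at 7.44 CPM (others 26.3 to 31.1). The other 2 rest on full samples: Nhp2 was at 536 CPM in the control Bar4 (others 403 to 431), and Bysl at 51.8 CPM in the mutant Bar20 (others 33.4 to 37.6).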

How the results depend on the processing

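With 6 cells in 1 control, 1 mutant at E8.5 and no more than 3 samples per genotype in any run at E9.5, calls depend on single samples, while the members' medians moved less: leaving out each sample in turn they ran from −0.35 to −0.27 for genotype over all stages, from −0.34 to −0.16 at E8.0, from −0.40 to −0.28 at E9.5 and from −0.35 to −0.18 for stage. No paired analysis was possible because barcode numbers differ between the genotypes and pair no samples. The cause of the changes below was not tested.

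For genotype over all stages (2132 genes called), DESeq2 called 3274 and runs 1, 2 and 3 alone 2, 27 and 57; leaving out samples gave 1259 (without Bar23) to 2479, and 1421 without Bar1. At E8.0 (4 genes), DESeq2 called 45 and no filter 35, and leaving out samples 1 to 10. At E9.5 (1766), DESeq2 called 2701, library sizes alone 952, run 2 alone 176 and run 3 alone 58, and leaving out samples 603 (without Bar23) to 2353; Tbl3 was at 0.024 in run 2 alone. For stage (1043), DESeq2 called 153, no filter 1725 and no run term 651, and leaving out samples 120 to 1161. Of the members (1 called), 0 passed with DESeq2's size factors, with DESeq2, with no filter, without erythroid-positive cells and with library sizes alone, 2 with no run term, 4 in run 1 alone, and 0 to 3 when samples were left out.

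For lineages, E8.0 alone called 4063 genes in cardiomyocyte, 2669 in endothelial, 1819 in paraxial, 1545 in pharyngeal and 1903 in splanchnic cells, and 4, 1, 5 and 1 members in the last 4. Without cardiomyocyte-positive cells in the mean, 23 endothelial, 29 pharyngeal and 29 splanchnic members passed, all lower, beside 2583, 1898 and 2172 of all 13709 genes, and 7 paraxial members, 5 higher and 2 lower, beside 2653 and 1955. Without erythroid-positive cells, 39 paraxial and 1 pharyngeal member passed, and 2341 pharyngeal genes. With library sizes alone, 3 endothelial, 25 erythroid, 32 paraxial, 3 pharyngeal and 4 splanchnic members passed, beside 3984, 11053, 5179, 3996 and 4709 of 13131 genes, and 7 pharyngeal with globins left out as well. Leaving out samples gave 11 to 23 paraxial members. In erythroid cells Ncl (−0.084), Npm1 (−0.60) and Rrp1b (−0.53) were below 0 with library sizes alone, and Npm1 (−0.16) and Rrp1b (−0.093) with globins left out; the members' median was 0.16 and 0.62.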

Other observations

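The sample that the per-cell table labels as a control and places at E7.5 (28 cells, 496508 UMIs) stands outside the 3 stages of the design. Its Wls level, 14.1 CPM, lay within the range of the mutant samples and below all other controls. At this depth the level rests on few UMIs, and 14 of the 28 cells were erythroid-positive. What set the Wls level of this sample was not tested. Its 38 members other than Npm1 and Ncl summed to 4266 CPM, and to 6125 CPM of the UMIs outside the globin genes, which took 30.4% of its UMIs. Lyar was at 294 CPM and Fbl at 60.4 CPM there.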
